A study of Saccharomyces cerevisiae with 2 samples.

Results

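The 49 genes described here encode assembly factors of the large (60S) ribosomal subunit of *Saccharomyces cerevisiae*, the proteins that fold, process and export the precursor of this subunit and do not stay in the finished ribosome. They were chosen by name from nucleolar, nuclear and cytoplasmic factors. The rule uses no measured value, but the list was drawn up with earlier results of these data known. All 49 were found by their symbol in both tables, among the 5699 genes that had a read in at least 1 of the 2 libraries. Transcript levels came from poly(A) RNA-Seq of the laboratory strain BYZ1 and of ZK2, labelled as a strain for bioethanol and not named in the paper. BYZ1 was diploid (MATa/MATalpha), homozygous for his3delta1, leu2delta0 and ura3delta0, and heterozygous for lys2delta0 and met15delta0, while no genotype is given for ZK2. Both were grown in 25 mL of YPD from an initial OD600 of 0.05 and harvested in early stationary phase. Yeast extract, peptone and glucose are labelled as 1, 2 and 2 g/L for BYZ1 but as 10, 20 and 20 g/L for ZK2, although the study's methods give the richer YPD for its cultures, BYZ1 among them. Whether the media differed is not settled by these sources, and such a difference could not be told apart from the strain.

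Assembly of the large subunit starts in the nucleolus on the precursor ribosomal RNA that RNA polymerase I makes. RNA helicases, methyltransferases and scaffold proteins act there, GTPases and maturation factors follow in the nucleoplasm, and export factors carry the particle to the cytoplasm, where the last factors are released. In yeast the genes of these factors belong to a large set, the ribosome biogenesis regulon, which is known to be transcribed strongly in growing cells and to be repressed when nutrients run out. Their promoters are known for a pair of short sequences, PAC and RRPE. PAC is bound by the repressors Dot6 and Tod6 and RRPE by the repressor Stb3, and the growth-promoting kinase Sch9 inactivates these repressors.

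The promoters of the assembly factors shared these sequences far more often than promoters in general. PAC was searched as GCGATGAG and RRPE as AAAAATTTT, on both strands, in the 300 bases before the start codon in the S288c reference R64, and neither sequence contains the other. PAC was present in 32 of the 49 windows (65.3%), against 243 of 6001 windows of all nuclear protein-coding genes (4.05%). RRPE was present in 34 of the 49 (69.4%), against 440 of the 6001 (7.33%). Both were found in 21 members (42.9%) and in 1.72% of all windows, and 4 members, *LSG1*, *NOP4*, *NOC3* and *RRP15*, had neither. Windows of divergent genes can overlap, and a match is a stretch of letters, not a measured binding site. The 81 genes of large subunit proteins, the products that these factors assemble, had PAC in 1 window and RRPE in 4. The motifs were not particular to the 49 members. PAC was present in 48.2% and RRPE in 62.5% of the 56 windows of the small subunit processome, the early particle of the other subunit. In 29 further large subunit factors the shares were 41.4% and 51.7%.

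The promoters shown next are those of the members with the highest and the lowest ratio of ZK2 to BYZ1 among members with both motifs (*DBP2* and *DBP3*) and among members with neither (*RRP15* and *LSG1*). Each runs 5′ to 3′ on the strand of the gene over 250 bases, from 300 to 51 bases before the start codon, with matches to PAC or RRPE in capitals. CTCATCGC is PAC read on the other strand and AAAATTTTT is RRPE read on the other strand.
*DBP2*, chrXIV:413339-413588, plus strand: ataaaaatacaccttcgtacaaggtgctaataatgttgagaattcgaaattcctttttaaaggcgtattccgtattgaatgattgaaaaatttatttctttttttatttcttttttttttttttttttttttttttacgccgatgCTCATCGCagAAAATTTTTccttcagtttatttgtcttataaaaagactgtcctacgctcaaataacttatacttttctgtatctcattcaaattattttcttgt
*DBP3*, chrVII:361910-362159, minus strand: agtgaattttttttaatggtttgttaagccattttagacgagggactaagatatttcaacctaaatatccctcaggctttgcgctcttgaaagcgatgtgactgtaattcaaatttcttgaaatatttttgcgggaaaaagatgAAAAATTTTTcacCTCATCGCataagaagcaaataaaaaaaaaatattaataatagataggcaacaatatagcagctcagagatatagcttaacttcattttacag
*RRP15*, chrXVI:818023-818272, plus strand: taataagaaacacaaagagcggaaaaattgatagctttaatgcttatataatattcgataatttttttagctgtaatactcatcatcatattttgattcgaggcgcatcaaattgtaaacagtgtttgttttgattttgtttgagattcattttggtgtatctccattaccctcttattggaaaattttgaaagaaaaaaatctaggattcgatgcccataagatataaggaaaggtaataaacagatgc
*LSG1*, chrVII:314331-314580, plus strand: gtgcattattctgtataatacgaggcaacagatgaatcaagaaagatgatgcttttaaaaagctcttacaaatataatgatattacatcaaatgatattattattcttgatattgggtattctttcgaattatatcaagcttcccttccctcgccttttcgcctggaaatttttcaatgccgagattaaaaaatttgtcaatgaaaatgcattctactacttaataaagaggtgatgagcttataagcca
In *DBP2* and *DBP3* the motifs lie close together in an A and T rich stretch. The capitals of *DBP3* cover an RRPE match on each strand, which overlap.

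Further PAC matches are shown in their 30 bases of R64 sequence, with PAC in capitals, from 4 members with a higher level in ZK2 and 2 with a lower level.
*CIC1*, chrVIII:210714-210743, plus strand: ttccactggagCTCATCGCaaattttgaaa
*NIP7*, chrXVI:153361-153390, plus strand: ttttgaaatatGCGATGAGcttagaactaa
*RLP7*, chrXIV:627226-627255, minus strand: aaagctgggaaGCGATGAGatgagaaaagt
*NOG1*, chrXVI:370824-370853, plus strand: tttttccgcagCTCATCGCaaagaaaaatt
*DRS1*, chrXII:131597-131626, plus strand: tttcaaaaaatGCGATGAGatgaggttgaa
*DBP6*, chrXIV:695529-695558, plus strand: aagcataactgGCGATGAGatgtgctcgaa
The motif stood on either strand and was found both in members that were higher and in members that were lower in ZK2. Counted to its base farthest from the start codon, PAC lay from 55 to 181 bases before the start codon with a median of 123, and RRPE from 86 to 248 with a median of 144. In 17 of the 21 members with both, the closest RRPE lay farther from the start codon than PAC, and the median distance between the starts of the closest pair was 14 bases.

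**Figure D1:**
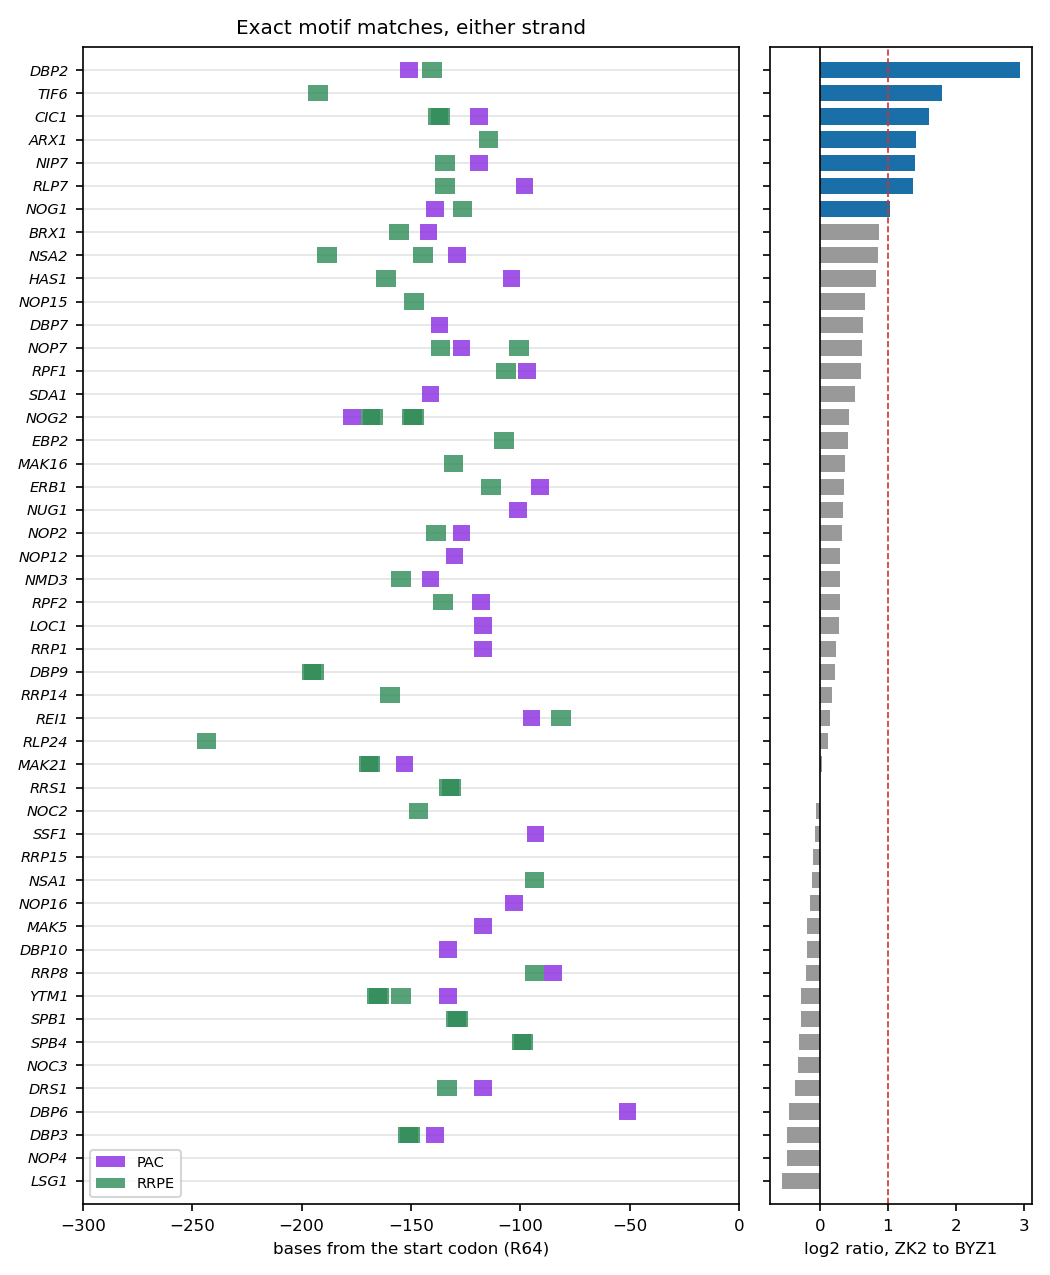
Exact matches to PAC and RRPE in the 300 bases before the start codon of the 49 assembly factors (left, bases from the start codon in R64) and the log2 ratio of ZK2 to BYZ1 of each gene (right, dashed line at 1). PAC lies 55 to 181 and RRPE 86 to 248 bases before the start codon, and the lowest pair, *NOP4* and *LSG1*, hold neither while *DBP3*, next above them, holds both.

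In BYZ1, 4.69 M reads (M, 10 to the power 6) mapped uniquely to 5671 genes, and in ZK2 4.57 M reads to 5605 genes. The expression unit is RPKM, reads per kilobase of coding length and per M of these reads. Each strain has 1 library, so no test between strains could be made, and no value has a replicate error. Intervals in parentheses are exact 95% intervals, Poisson for a level and conditional binomial for a ratio, and cover counting error only. PCR copies cannot be told from separate molecules, so they can be too narrow even for that. Of the genes labelled as deleted in both copies in BYZ1, *URA3* had 0 reads and *LEU2* 1 read in BYZ1, against 123 and 360 in ZK2. *HIS3* had 156 reads in BYZ1 and 159 in ZK2, with 67.4% of its coding length covered in BYZ1 and 98.9% in ZK2, so its level does not separate the strains. Of the genes labelled heterozygous, *LYS2* had 451 reads in BYZ1 and 993 in ZK2, and *MET17* (*MET15*) 145 and 43. The sources used here do not say that reads were counted by strand, and *REI1* is the only member whose coding region overlaps a neighboring protein-coding gene in R64 (*SLM6*, listed with reads in neither table). *SSF1* has a close copy, *SSF2*, with 92.1% identical bases. Of its windows of 49 bases, 4.19% occur unchanged in that copy, so its level may be low by lost reads.

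Transcripts of the assembly factors were of middling to low abundance in both strains. In BYZ1 their RPKM ran from 6.76 (*DBP2*) to 111 (*TIF6*) with a median of 31.8, where the median of all listed genes was 37.2. In ZK2 it ran from 13.0 (*NOP12*) to 388 (*TIF6*) with a median of 33.8, against 33.9 for all genes. Within each library the members therefore stood near the middle, at a median percentile of 44.3 in BYZ1 and of 49.97 in ZK2, and 15 members in BYZ1 and 24 in ZK2 lay above the median gene. Together they took 0.230% (0.225 to 0.234) of the gene reads in BYZ1 and 0.299% (0.294 to 0.304) in ZK2, a summed ratio of 1.30 (1.27 to 1.33). Without *DBP2* and *TIF6* these shares were 0.220% and 0.260% and the summed ratio 1.18 (1.15 to 1.21), so these 2 genes carried much of the difference. For the 81 large subunit proteins the median RPKM was 300 in BYZ1 and 276 in ZK2, which is 9.41 and 8.17 times the median of the assembly factors. The order of the members was partly the same in both strains (Pearson r = 0.66 and Spearman rho = 0.71 of log2 RPKM across the 49 genes, which share the 2 libraries and are not independent replicates).

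**Figure D2:**
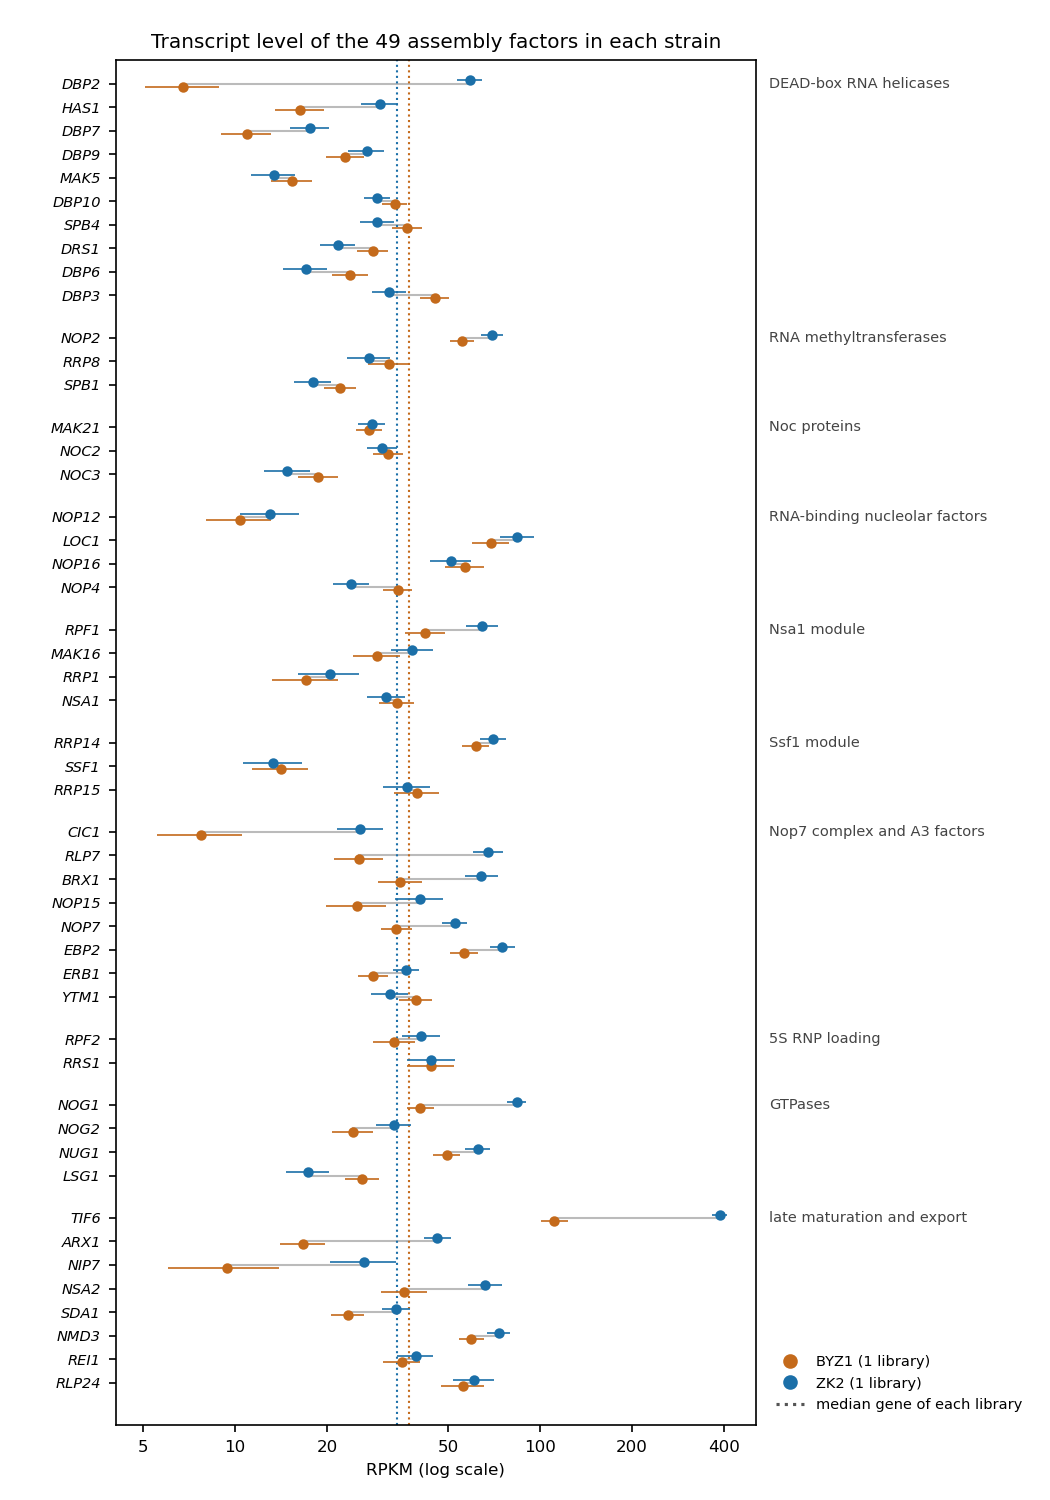
RPKM (log scale) of each assembly factor in BYZ1 (orange) and ZK2 (blue), grouped by role, with bars for the exact Poisson 95% interval of 1 library each and dotted lines at the median gene of each library. *TIF6* is the highest in both strains, and the bars of *DBP2*, *CIC1*, *NIP7*, *ARX1*, *RLP7* and *NOG1* in ZK2 lie clear of those in BYZ1.

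The strains were compared by the log2 ratio of ZK2 to BYZ1, after adding 1 to each RPKM, across 5080 genes whose RPKM reached 10 in either library. The median of all these genes was -0.17, so a value relative to the typical gene is 0.17 higher than the value given. The 49 members had a median of 0.28, and 37 (75.5%) exceeded the all-gene median. A log2 ratio above 0 was found in 32 members and in 2042 of the 5080 genes. A log2 ratio of 1 or more was reached by 7 members (14.3%), against 402 of all genes (percent called 7.91). A log2 ratio of -1 or less was reached by 0 members, against 524 of all genes (percent called 10.3). Of these 7, *DBP2*, *CIC1* and *NIP7* passed the filter only through their level in ZK2. With an RPKM of 10 or more required in both libraries, which was chosen after the data were seen, 4 of 46 members (8.70%) were higher, close to the 314 of 4610 genes (percent called 6.81). The share called higher is therefore near the background once low members are left out, and the members differ from all genes more in their median, 0.23 against -0.16 under that filter. With the scale set by TMM, which centers the typical gene near 0, 10 members (20.4%) were higher against 10.6% of all genes, and 0 were lower against 6.69%. The 3 added were *BRX1*, *NSA2* and *HAS1*.

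**Figure D3:**
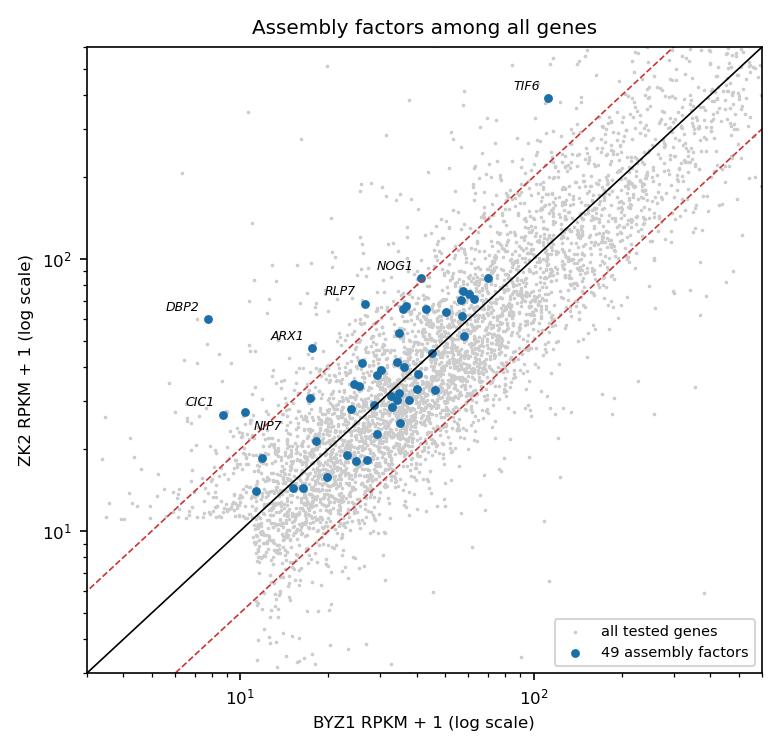
RPKM plus 1 in ZK2 against BYZ1 (log scales) for the genes that passed the filter and lie within the axes (gray) and the 49 assembly factors (blue), with lines at equality and at a log2 ratio of 1 and -1 (dashed). The 7 named members lie on or above the upper dashed line and none lies below the lower one.

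The 8 genes grouped here as late maturation and export factors were shifted toward ZK2. The group is broad and does not stand for late steps alone, since it also holds *NIP7*, of a nucleolar factor, and *NSA2*, of nuclear maturation. It does not hold all late factors either. *LSG1*, which encodes a cytoplasmic GTPase, is grouped with the GTPases below and had a log2 ratio of -0.57, so the values of this group depend on the grouping. All 8 had a log2 ratio above 0 (against 2042 of the 5080 genes), from 0.11 (*RLP24*) to 1.79 (*TIF6*), with a median of 0.69. The threshold was passed by 3 of the 8, against 7.91% of all genes, and 1 of these 3, *NIP7*, passed the filter only through ZK2. *TIF6*, whose product keeps the large subunit from joining the small subunit too early, had 385 reads in BYZ1 and 1308 in ZK2. Its RPKM was 111 (100.5 to 123) in BYZ1 and 388 (367 to 409) in ZK2, a ratio of 3.48 (3.11 to 3.91). It lies on the minus strand of chromosome 16 from 592329 to 593066 (sacCer2). *TIF6* was thus the most abundant member in each strain and among the most changed, and its promoter window had RRPE and no PAC.

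*ARX1* encodes a nuclear export factor of the particle that is removed in the cytoplasm. It was at 16.6 (13.99 to 19.7) in BYZ1, from 139 reads, and at 46.04 (41.5 to 50.9) in ZK2, from 375 reads, a ratio of 2.77 (2.27 to 3.39). The gene lies on the minus strand of chromosome 4 from 655684 to 657465. *REI1*, whose product is needed to release Arx1 in the cytoplasm, had no such difference, at 35.2 and 39.1, a ratio of 1.11 (0.909 to 1.35). The level of *ARX1* was thus below that of *REI1* in BYZ1 and above it in ZK2, where their intervals overlapped. *NIP7*, on chromosome 16 from 153494 to 154039, encodes a small nucleolar factor and had 24 reads in BYZ1 and 66 in ZK2. Its RPKM was 9.38 (6.01 to 13.95) in BYZ1 and 26.4 (20.5 to 33.6) in ZK2, a ratio of 2.82 (1.74 to 4.71), the widest interval relative to its ratio among the 7 higher members. *NSA2*, a factor of nuclear maturation, was at 35.8 in BYZ1 and 66.0 in ZK2, a ratio of 1.84 (1.48 to 2.30). The export adapter gene *NMD3* (59.5 and 73.3) and the export-related *SDA1* (23.4 and 33.8) differed less, with log2 ratios of 0.30 and 0.51.

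The Nop7 complex and the A3 factors act together on the removal of the spacer in front of the 5.8S RNA. They also stood above the typical gene, with a median of 0.64 and 7 of 8 above 0, against 2042 of the 5080 genes. *CIC1* had 41 reads in BYZ1 and 133 in ZK2, an RPKM of 7.73 (5.55 to 10.5) and 25.7 (21.5 to 30.5), and a ratio of 3.33 (2.33 to 4.84). It lies on chromosome 8 from 210842 to 211972. *RLP7*, which resembles a ribosomal protein gene, had 116 and 299 reads, an RPKM of 25.5 (21.1 to 30.6) in BYZ1 and 67.5 (60.1 to 75.6) in ZK2, and a ratio of 2.64 (2.13 to 3.30). It lies on the minus strand of chromosome 14 from 626177 to 627145. *NOP15*, which encodes an RNA-binding A3 factor, was at 25.1 and 40.3, a ratio of 1.60 (1.197 to 2.16). All 3 were lower than the median gene in BYZ1, and *RLP7* and *NOP15* were above it in ZK2.

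Nop7, Erb1 and Ytm1 form a stable complex, and their transcripts were close in BYZ1, at 33.8 for *NOP7*, 28.3 for *ERB1* and 39.2 for *YTM1*. In ZK2 they were at 52.6, 36.4 and 32.1. The ratio was 1.56 (1.34 to 1.81) for *NOP7*, 1.28 (1.11 to 1.49) for *ERB1* and 0.819 (0.678 to 0.989) for *YTM1*, so the order of the 3 changed and *YTM1* was the only member of the group below 0. *BRX1* and *EBP2*, whose products bind each other, were at 34.8 and 56.3 in BYZ1 and at 64.2 and 75.1 in ZK2. The ratio of *BRX1* was 1.84 (1.496 to 2.28) and that of *EBP2* 1.33 (1.16 to 1.54).

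Among the 4 GTPase genes the values spread widely. *NOG1*, a GTPase that joins in the nucleolus and travels with the particle, passed the threshold by a small margin, from 369 reads and an RPKM of 40.5 (36.5 to 44.8) in BYZ1 to 744 reads and 83.7 (77.8 to 89.96) in ZK2, a ratio of 2.07 (1.82 to 2.35) and a log2 ratio of 1.03. It lies on chromosome 16 from 370975 to 372918. *NUG1* (49.4 and 62.6) and *NOG2* (24.4 and 33.1) had log2 ratios of 0.33 and 0.43. *LSG1*, the cytoplasmic GTPase that releases Nmd3, had the lowest log2 ratio of all 49 members, -0.57. It had 235 reads in BYZ1 and 152 in ZK2, an RPKM of 26.1 (22.8 to 29.6) and 17.3 (14.7 to 20.3), and a ratio of 0.663 (0.537 to 0.817). *NOG1* and *LSG1* were thus at opposite sides, and *LSG1* was 1 of the 4 members with no exact match to PAC or RRPE.

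The 10 DEAD-box RNA helicase genes divided. Helicases of this family unwind or remodel RNA in the particle. Their median log2 ratio was -0.18, about that of all genes, and 4 of the 10 were above 0, against 2042 of the 5080 genes. *DBP2*, also known for roles in messenger RNA metabolism, had the largest ratio of all members. It had 52 reads in BYZ1 and 442 in ZK2, an RPKM of 6.76 (5.05 to 8.87) and 58.9 (53.6 to 64.7), a ratio of 8.72 (6.53 to 11.9) and a log2 ratio of 2.95. *DBP2* was the lowest member in BYZ1, where reads covered 65.1% of its coding length, and was above the median gene in ZK2, where they covered 98.4%. The gene lies on chromosome 14 from 413641 to 416283 (sacCer2) and is interrupted by an intron, as is *NOG2*. Its neighbor *CYB5*, a cytochrome gene and no assembly factor, had 28 reads in BYZ1 and 158 in ZK2, a log2 ratio of 2.46, while *RPC19* on the other side was at 0.45. Whether these values share a source was not tested.

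*HAS1*, a helicase gene used in both subunits, was at 16.3 (13.5 to 19.6) and 29.8 (25.9 to 34.2), a ratio of 1.83 (1.45 to 2.32), and *DBP7* at 10.9 and 17.6, a ratio of 1.61 (1.27 to 2.05). Most of the others were lower in ZK2. *DBP3* had 332 reads in BYZ1 and 230 in ZK2, an RPKM of 45.1 (40.3 to 50.2) and 32.0 (28.0 to 36.4), and a ratio of 0.710 (0.598 to 0.843). *DBP6* had 211 and 147 reads, an RPKM of 23.8 (20.7 to 27.3) and 17.0 (14.4 to 20.0), and a ratio of 0.714 (0.575 to 0.886). *DRS1* had 299 and 224 reads, an RPKM of 28.2 (25.1 to 31.6) and 21.7 (18.9 to 24.7), and a ratio of 0.768 (0.643 to 0.917). These 3 stayed below the typical gene, with log2 ratios relative to the median of all genes of -0.31, -0.29 and -0.19. *SPB4* (36.6 and 29.2) had an interval below 1, and those of *DBP10*, *MAK5* and *DBP9* held 1.

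Genes of early nucleolar scaffolds and of RNA methylation were close to the typical gene. The Noc genes *MAK21*, *NOC2* and *NOC3*, whose products form pairs on the early particle, were at 27.5, 31.7 and 18.7 in BYZ1 and at 28.1, 30.4 and 14.8 in ZK2. Their median log2 ratio of -0.06 was 0.11 above the median of all genes, so its sign depends on the scale. Of the methyltransferase genes, *NOP2* was at 55.4 and 69.6, a ratio of 1.26 (1.11 to 1.42), *RRP8* at 31.8 and 27.5, and *SPB1* at 22.1 and 18.01. The RNA-binding nucleolar factors held both the second highest level in BYZ1, *LOC1* (69.0 in BYZ1 and 84.0 in ZK2), and the lowest level in ZK2, *NOP12* (10.4 and 13.0). *NOP4*, with RNA recognition motifs, had 329 reads in BYZ1 and 226 in ZK2, an RPKM of 34.1 (30.5 to 38.0) and 24.0 (21.0 to 27.4), and a ratio of 0.704 (0.592 to 0.837). It was thus next to *LSG1* at the low end, and *NOP16* (56.7 and 50.9) had an interval that held 1.

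Members of the same module did not always have the same level. In the Nsa1 module, *RPF1* was at 42.05 and 64.5, a ratio of 1.54 (1.26 to 1.87), and *MAK16* at 29.2 and 38.0, while *NSA1* (33.9 and 31.3) and *RRP1* (17.1 and 20.4) had intervals that held 1. In the Ssf1 module, *RRP14* was at 61.6 and 70.1, *RRP15* at 39.4 and 36.6, and *SSF1* at 14.1 and 13.3, and all 3 intervals of the ratio held 1. Levels in this module thus spread more between genes than between strains. *RPF2* and *RRS1*, which load the 5S RNA particle together, were at 33.2 and 43.9 in BYZ1 and at 40.8 and 44.0 in ZK2, both with intervals that held 1. Over all 49 members the interval of the ratio was above 1 in 23, held 1 in 17 and was below 1 in 9. These counts describe counting error in these libraries and not a difference between cultures, and were not made over all genes. A ratio of 1 is not that of the typical gene, whose log2 ratio was -0.17. An interval below 1 therefore need not lie below the typical gene.

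The median log2 ratio of the members differed between motif classes, of which that with neither motif is small. The classes were read from the S288c reference R64, and the promoter sequences of ZK2 were not examined. The log2 ratio had a median of 0.43 in the 21 members with both motifs, 0.24 in the 11 with PAC alone, 0.18 in the 13 with RRPE alone and -0.40 in the 4 with neither. Classes rest on exact matches to the full motifs, and these 4 still had a match to at least 1 of the shorter cores. Of the 7 higher members, 5 had both motifs and 2, *TIF6* and *ARX1*, had RRPE alone, but 3 of the 5 (*DBP2*, *CIC1* and *NIP7*) passed the filter only through ZK2. With an RPKM of 10 required in both libraries, 2 higher members had both motifs and 2 had RRPE alone, and the median was 0.34 in the 18 members left with both. Among the tested genes that are not members, the median was 0.17 in the 77 with both motifs and -0.19 in the 4538 with neither, and the share with a log2 ratio of 1 or more was 10.4% and 7.51%. That share did not follow the number of motifs, since it was 6.88% in the 189 with PAC and 12.6% in the 373 with RRPE, counts that each include the 77. Across the 49 members the coding length had a Pearson r of -0.28 and a Spearman rho of -0.33 with the log2 ratio, against -0.07 and -0.11 across all 5080 genes. The length of the members had a rho of -0.31 with their level in BYZ1 and of -0.42 in ZK2.

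Other lists of ribosome assembly factors also had medians above that of all genes. Of 29 further large subunit factors, 24 passed the filter, with a median log2 ratio of 0.30, and 21 exceeded the all-gene median. Of the 24, 1 was higher (4.17%) and 0 were lower, which is below the background share of higher calls. It was *MRT4*, which encodes a factor of the ribosomal stalk, at 25.8 in BYZ1 and 65.8 in ZK2, a ratio of 2.55 (1.98 to 3.32). *RSA4*, a nuclear factor that passed the filter only through ZK2, followed at 8.68 and 17.2 with a log2 ratio of 0.91. The lowest were *REH1*, the paralog of *REI1*, at 57.3 and 32.3, a ratio of 0.564 (0.471 to 0.675), and *RSA3*, at 41.5 and 27.4, a ratio of 0.660 (0.495 to 0.876). *REH1* was thus above *REI1* in BYZ1 and below it in ZK2, where their intervals overlapped. The small subunit processome, the early particle of the other subunit, had a median of 0.17 over 52 tested genes, with 5 higher (9.62%) and 2 lower (3.85%), against 7.91% and 10.3% of all genes. Among these 5, *UTP10*, *UTP15* and *UTP23* passed the filter only through their level in ZK2, so the share of higher genes rests in part on the filter. The 81 large subunit proteins had a median of -0.17, that of all genes, with 3 higher (3.70%) and 6 lower (7.41%), both shares under those of all genes.

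**Figure D4:**
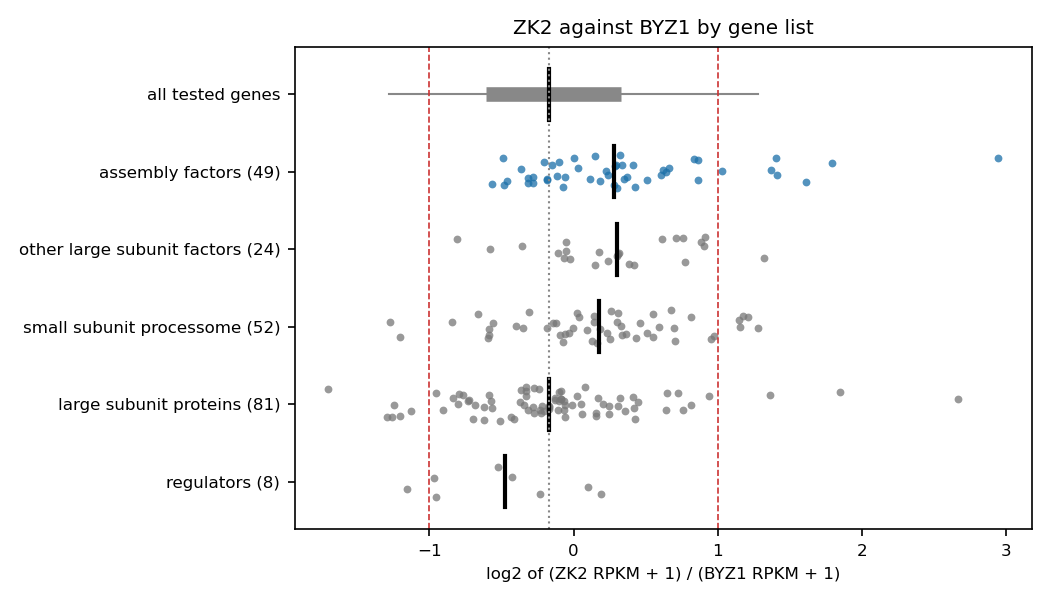
Log2 ratio of ZK2 to BYZ1 by gene list, with 1 point per gene, a black line at each median, and for all 5080 genes a gray box for the middle 50% and a line from the 5th to the 95th percentile. Red dashed lines mark 1 and -1, and the dotted line the median of all genes. The medians of the assembly factors, of other large subunit factors and of the processome lie to its right, at 0.28, 0.30 and 0.17, and that of the regulators to its left, at -0.48.

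Regulators known to act on these genes were mostly lower in ZK2 than in BYZ1, with 2 of the 8 above the all-gene median. The repressor gene *STB3* had 1351 reads in BYZ1 and 587 in ZK2, an RPKM of 187 and 83.3, and a ratio of 0.446 (0.404 to 0.491). It was alone among the 8 in passing the threshold, a share of 12.5% that is near the 10.3% of all genes called lower. *DOT6* had 3884 and 1931 reads, an RPKM of 412 and 210, and a ratio of 0.510 (0.482 to 0.539). Its paralog *TOD6* was expressed far less, at 30.2 and 22.2, a ratio of 0.736 (0.597 to 0.905). *SIN3*, a subunit of the histone deacetylase complex that these repressors recruit, was at 82.1 and 41.8, a ratio of 0.509 (0.469 to 0.552), whereas the deacetylase gene *RPD3* was at 34.4 and 39.5. The kinase genes *SCH9* (95.2 and 65.9) and *TOR1* (20.1 and 16.9) had log2 ratios of -0.52 and -0.23, and the activator gene *SFP1* (52.2 and 56.0) one of 0.10. Transcripts of the 3 PAC and RRPE repressors were thus lower and those of the assembly factors on balance higher in ZK2. The transcript of *SCH9*, whose product inactivates these repressors, was also lower, and that of the activator *SFP1* was close in both strains. No link between any of these levels was tested.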

How the data were processed

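1 poly(A) library per strain was sequenced (Illumina HiSeq). Per the paper's methods, the RNA of each of its samples came from 3 cultures, and the authors discarded adapter-containing reads and those in which over 50% of bases had a quality of at most 5. SOAPAligner was used against genes of S288c or YJSH1. Its version, and the aligner used for ZK2, are not given in the sources used here. The deposited read count of each gene is that of uniquely mapped reads and is not normalized, and a gene with 0 reads has no row. The deposited RPKM is this count per kilobase of listed length and per M (10 to the power 6) reads uniquely mapped to genes, and the values could be recomputed from the counts. Coverage, the deposited percent of a gene under reads, was taken unchanged. The listed lengths are coding lengths, all multiples of 3. sacCer2 is the build in the submitters' processing notes, and gene positions are those of the BYZ1 table. Motifs and printed sequences were read from the RefSeq reference R64 by its own annotation, where all 49 members have the listed coding length. How the alignment of reads of a diverged strain to S288c genes affects ZK2 levels was not tested.

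Levels were compared as log2 of RPKM plus a pseudocount of 1, with a filter of RPKM 10 in at least 1 library and a threshold of 1 in size. No count model was run, for want of replicates. The depth, 4.69 M gene reads in BYZ1 and 4.57 M in ZK2, gave a median of 230 and 204 reads per gene. The members and lists were chosen with earlier results of these data known. Named in full are the 5 highest and 5 lowest members by log2 ratio, the 3 highest and 3 lowest in BYZ1, members past the threshold, the 2 highest and lowest of the other large subunit factors, and every regulator. Alternatives were the TMM factor of edgeR 4.0.16, the median gene ratio as scale, totals without the 10 highest genes, pseudocounts of 0.1 and 5, other filters and the core of each motif. The steps were tested on simulated counts. Python 3.11.15, pandas 2.3.3 and scipy 1.17.1 were used.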

Additional observations from a re-analysis of the deposited data

How the results depend on the processing

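The median log2 ratio of the members stayed above 0, and above the median of all genes, under each alternative run. It was 0.45 with the TMM factor and 0.45 with the median gene ratio as scale, 0.23 with a pseudocount of 5, 0.51 among the 16 members whose RPKM reached 50 in either library and 0.23 with an RPKM of 10 or more in both, a filter added after the data were seen. The count of higher members was 7 or, with either other scale, 10. It was 4 of 16 at an RPKM of 50, 4 of 37 with 90% of the coding length covered in both libraries and 4 of 46 with an RPKM of 10 in both. The filter of 10 in both removed only *DBP2*, *CIC1* and *NIP7*, all called higher and all under 10 in BYZ1. The coverage filter removed the same higher members, and the filter of 50 removed *CIC1*, *ARX1* and *NIP7* from them. *NOG1* fell under the threshold with a pseudocount of 5. The count of lower members was 0 under each. The share of gene reads was 0.224% in BYZ1 and 0.292% in ZK2 without *SSF1* and *REI1*, and 0.268% and 0.347% of the reads outside the 10 highest genes of either library. With the cores GATGAG and AAAATTT in place of the full motifs, 95.9% of the members had a match to each, against 19.1% and 24.4% of all windows. Over single members, no called value changed sign, which was hardly possible since these values lie 1 or more from 0. Uncalled values near 0 did change sign with the scale. With the TMM factor *NOC2* went from -0.06 to 0.11 and *NOP16* from -0.15 to 0.02. No paired analysis was possible because each strain has 1 library, and for the same reason none could be left out.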

Other observations

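The nucleases that trim the precursor of the large subunit RNA, a list of 20 genes made after the other values were seen, were not shifted as the assembly factors were. Of the 18 that passed the filter, 0 were higher and 0 were lower, against 7.91% and 10.3% of all genes. Their median log2 ratio was -0.25, and 5 were above 0, against 2042 of the 5080 genes. The exosome gene *RRP6*, a nuclear exonuclease, had the highest value among these 18, at 37.0 in BYZ1 and 61.8 in ZK2, a ratio of 1.67 (1.47 to 1.90). The exonuclease gene *RAT1* was at 41.4 and 26.8, a ratio of 0.647 (0.567 to 0.739), and *RRP17* at 41.3 and 24.1, a ratio of 0.584 (0.436 to 0.776).

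In the R64 gene order 6 assembly factors lie directly beside a gene of the small subunit processome, and the neighbors did not always have like values. *NOG2* (log2 ratio 0.43) lies beside *ESF2*, which fell from 171 reads in BYZ1 to 70 in ZK2 (-1.20). *SSF1* (-0.08) lies beside *RRP3*, at 218 and 84 reads (-1.27). These neighbors were the 2 processome genes past the threshold in that direction. *NSA2* (0.86) lies beside *LCP5* (0.33), *NMD3* (0.30) beside *DBP8* (0.31), *NOC3* (-0.32) beside *CMS1* (0.43) and *RRP15* (-0.10) beside *NOC4* (0.13). The 85 tested neighbors that are not members had a median of -0.08, with 7 higher (8.24%) and 6 lower (7.06%), against 7.91% and 10.3% of all genes.

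The core of PAC was often found as a repeat. The core GATGAG repeated with a step of 5 bases on the same strand, so that the copies share a G, was searched on both strands after the sequences were seen, and was found in 16 of the 49 member windows (32.7%) and in 77 of the 6001 windows of all nuclear protein-coding genes (1.28%). In 8 of the 16 members the full PAC is part of the repeat, as in the *RLP7* and *DRS1* sequences printed above, and the other 8 (*ARX1*, *DBP9*, *EBP2*, *NOC2*, *NOP15*, *NOP4*, *RLP24* and *RRS1*) lack the full PAC.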
